A study of Mus musculus with 2 samples.

Results

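Cell cycle genes by phase were taken as 38 of the 19059 genes counted: 16 replication genes, whose products prepare and carry out the copying of DNA, and 22 mitotic genes, whose products drive the separation of the copies. They were picked by gene symbol, and each symbol matched 1 row of the count table. Cells came from orthotopic tumors, that is, tumors of the KPC model of pancreatic cancer grown in the mouse pancreas. The mice received DMSO, the vehicle, or EIPA at 10 mg/kg, a blocker of sodium-proton exchange used to stop macropinocytosis. Each of the 2 samples pooled 4 tumors before fixation and probe hybridisation, so single animals cannot be told apart and each treatment is 1 sample. The cell barcodes end in a library number, 1 or 2, that no label ties to DMSO or EIPA. All values are therefore given for library 1 first and library 2 second, and each ratio sets library 2 against library 1 without saying which treatment is which.

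Before a cell divides, the loading factors Cdc6 and Cdt1 license the origins where DNA copying starts, and cyclin E acts at the entry into S phase. The E2F transcription factors switch on this set late in G1. Through S phase, ribonucleotide reductase, thymidylate synthase and the histone genes supply the building blocks of new chromatin. In G2 and mitosis, cyclins A and B activate Cdk1, the Aurora and Polo kinases build the spindle, and the anaphase-promoting complex with Cdc20 ends the phase by destroying its cyclins.

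The 2 libraries held 12337 and 11945 cells with 203459556 and 185474400 unique molecular identifiers (UMIs, each a captured probe molecule). Over all these cells the median mitochondrial share was 0.39% and 0.585%. After filtering and removal of likely doublets, 11115 and 10785 cells remained. In all, 225 barcode sequences occurred in both libraries, on 1.85% of the cells. Of the 24 clusters, 14 were counted as tumor cells: 6 with Epcam at or above 100 CPM, that is, UMIs scaled to the same total in every group of cells, and 8 with less. In 7 of the 8 Epcam-low clusters, and in 1 Epcam-high cluster, no class had enough markers over the median of all clusters. They were placed with the tumor cells because at least 3 of 20 epithelial markers stood higher than in the fibroblast and endothelial clusters. This step asked for fewer markers than the first and was chosen after the clusters were seen. Krt8, a keratin of simple epithelia, stood at 1620 and 2306 CPM in the 8 Epcam-low clusters together, against 2360 and 2554 in the Epcam-high cells and 451 and 819 in fibroblasts. Over 14 epithelial markers of at least 100 CPM, Epcam-low cells reached a median of 60.2 and 62.9% of the level in all tumor cells. Single markers ran from 12.5 to 106% and from 12.0 to 104%. By the same measure neutrophils reached 54.97 and 61.1%, and T cells 58.5 and 56.3%. The Epcam level of the 8 Epcam-low clusters, at 31.5 and 21.9 CPM, was below even the 80.5 and 34.1 CPM found in fibroblasts. The tumor identity of the Epcam-low cells is therefore less secure than that of the Epcam-high cells. Fibroblasts, endothelium and leukocytes carried their own markers, with Col1a1 at 38776 and 38300 CPM, Pecam1 at 1733 and 1641 CPM and Ptprc at 240.5 and 295 CPM.

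In tumor cells, both phases stood higher in library 2, and the mitotic genes more so. The 22 mitotic genes summed to 506 and 969 CPM in libraries 1 and 2, a ratio of 1.91 (1.90 to 1.93). The 16 replication genes summed to 665 and 1056 CPM, a ratio of 1.59 (1.58 to 1.60). These sums rest on 9342 and 8458 tumor cells, and the 95% intervals here and below cover counting error only, since each library is 1 sample. A call was a log2 ratio of CPM plus 1 past 1.5-fold, made for genes of at least 10 CPM and 20 UMIs over both libraries pooled. By that measure 20 of 22 mitotic genes were called higher in library 2, against a background of 2.14% of all genes, and 6 of 14 replication genes that passed the filter. Against 0.957% of all genes called lower, 0 members were. The median log2 ratio was 0.95 for the mitotic genes and 0.51 for the replication genes that passed, against -0.00 for all genes.

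The difference was larger in the Epcam-low cells. There the mitotic sum stood at 385 and 1067 CPM, a ratio of 2.77 (2.74 to 2.80), and the replication sum at 581 and 1106 CPM, a ratio of 1.90 (1.88 to 1.92). In Epcam-high cells the mitotic sum stood at 695 and 778 CPM, a ratio of 1.12 (1.10 to 1.14), and the replication sum at 795 and 960.0 CPM, a ratio of 1.21 (1.19 to 1.22). In Epcam-low cells 22 of 22 mitotic genes were called higher (background 3.31%), and 8 of 14 replication genes. In Epcam-high cells 0 of 22 mitotic genes and 2 of 13 replication genes were called higher (background 1.09%). Neither group of cells had a member called lower, where 1.62% and 0.942% of all genes were. In library 1 the Epcam-high cells thus held the higher mitotic sum, and in library 2 the Epcam-low cells did. Without the Epcam-low cluster led by mitotic genes, the ratio of the mitotic sum in Epcam-low cells was 4.15.

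**Figure D1:**
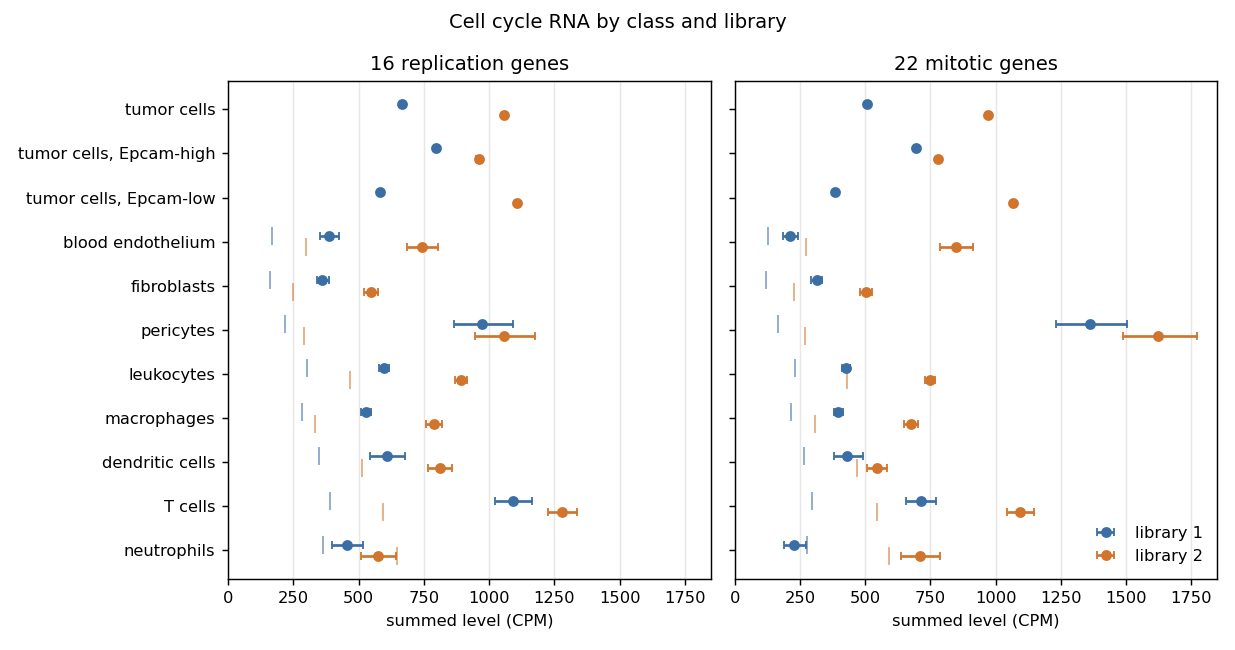
Summed level of the replication genes (left) and the mitotic genes (right) in CPM for each class of cells, in library 1 (blue) and library 2 (orange); bars are exact Poisson 95% intervals of the counts. Vertical ticks mark the level that tumor-cell RNA carried over into the class would give. The mitotic sum ran from 213 CPM in blood endothelium of library 1 to 1624 CPM in pericytes of library 2.

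The promoters of the members differed by phase in the letters they hold. RefSeq promoters (build GRCm38.p6, 250 bases before to 50 after the transcript start) were matched for 29 of the 38 members, 17 mitotic and 12 replication genes. Hist1h1b was matched through its current symbol H1f5. Both strands were searched for the CHR core TTTGAA, an element bound by the DREAM and MuvB complexes of the late cell cycle, for CCAAT, the box of NF-Y, and for the E2F letters TTTGGCGC, TTTCGCGC or TTTCCCGC. The CHR core occurred in 12 of 17 mitotic and 2 of 12 replication promoters, against 18.1% of 27025 RefSeq promoters. CCAAT occurred in 15 of 17 mitotic and 8 of 12 replication promoters, against 37.9% of all. The E2F letters occurred in 1 of 17 mitotic promoter windows and in 5 of 12 replication ones, against 1.91% of all. CHR core and CCAAT stood together in 12 of 17 mitotic and 2 of 12 replication promoters, against 7.12% of all. No match of one kind overlapped a match of another kind in the members, though E2F matches on opposite strands overlapped in Mcm5 and Mcm6, and CCAAT matches in Ube2c. A match is a description of letters, not a bound site.

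Ccnb2 and Cdk1 are printed for the mitotic genes, Mcm5 for the licensing genes and Rrm2 for the supply of nucleotides, with all matches of the 3 motifs in capitals, 5′ to 3′ along the gene. Ccnb2 holds CCAAT at -87, -54 and -21 from the start and CHR cores at -167 and 5. Cdk1 holds CHR cores at -71 and -15, CCAAT on the other strand at -208, -80 and -48, and the E2F letters at -131. Mcm5 holds CCAAT at -77, -22 and 7 and overlapping E2F matches from -153 and -149, and Rrm2 holds CCAAT at -50 with neither the CHR core nor the E2F letters in this window.
Ccnb2 (chr9:70421505-70421804, minus strand): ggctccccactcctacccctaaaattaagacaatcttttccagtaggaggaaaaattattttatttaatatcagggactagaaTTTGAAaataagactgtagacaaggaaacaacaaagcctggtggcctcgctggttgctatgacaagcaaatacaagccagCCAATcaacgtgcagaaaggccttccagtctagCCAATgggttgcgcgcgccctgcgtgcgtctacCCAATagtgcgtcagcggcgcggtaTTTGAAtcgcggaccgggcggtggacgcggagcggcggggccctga
Cdk1 (chr10:69352863-69353162, minus strand): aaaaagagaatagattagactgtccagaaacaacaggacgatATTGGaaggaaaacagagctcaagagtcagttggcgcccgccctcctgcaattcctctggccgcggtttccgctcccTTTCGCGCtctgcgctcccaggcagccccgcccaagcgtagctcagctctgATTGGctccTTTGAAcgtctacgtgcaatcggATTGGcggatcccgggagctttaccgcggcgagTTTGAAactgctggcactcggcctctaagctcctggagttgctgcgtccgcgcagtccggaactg
Mcm5 (chr8:75109259-75109558, plus strand): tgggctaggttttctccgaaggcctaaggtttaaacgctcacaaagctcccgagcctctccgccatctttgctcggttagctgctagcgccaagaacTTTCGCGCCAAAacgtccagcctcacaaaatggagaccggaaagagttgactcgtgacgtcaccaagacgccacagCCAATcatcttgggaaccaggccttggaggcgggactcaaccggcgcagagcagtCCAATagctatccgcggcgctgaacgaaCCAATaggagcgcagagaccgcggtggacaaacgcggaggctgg
Rrm2 (chr12:24708004-24708303, plus strand): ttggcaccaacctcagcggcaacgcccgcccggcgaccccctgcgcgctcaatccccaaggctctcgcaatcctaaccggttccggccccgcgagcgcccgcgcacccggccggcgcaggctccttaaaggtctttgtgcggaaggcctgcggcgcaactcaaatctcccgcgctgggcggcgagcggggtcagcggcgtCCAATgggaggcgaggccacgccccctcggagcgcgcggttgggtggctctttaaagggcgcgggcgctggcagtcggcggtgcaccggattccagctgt

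The cyclin E genes and Cdc6 act first in the cycle and were thinly counted in tumor cells. Ccne1, which encodes cyclin E1, stood at 4.86 and 6.75 CPM in tumor cells, and Cdc6, which loads the helicase at origins, at 5.31 and 9.76 CPM. Both were under the filter of 10 CPM, and their ratios were 1.39 (1.26 to 1.53) and 1.84 (1.68 to 2.01). Ccne2, the second cyclin E, stood at 6.56 and 14.1 CPM, a ratio of 2.15 (2.00 to 2.32). Ccne2 was thus the only cyclin E past the filter, and its level in library 2 was well above that in library 1.

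The replicative helicase is a ring of Mcm subunits, and its subunits differed in how far apart the libraries were. In tumor cells Mcm2 stood at 57.5 and 61.8 CPM (log2 ratio 0.10), Mcm4 at 77.1 and 80.5 CPM (0.06) and Mcm6 at 45.1 and 49.7 CPM (0.14), the lowest log2 ratios of all members that passed. Cdt1, the partner of Cdc6 in loading the ring, stood at 59.7 and 69.5 CPM (0.21), and Gins2, a subunit of the GINS complex that completes the helicase, at 26.9 and 31.8 CPM (0.23). Mcm3 stood at 55.7 and 73.0 CPM (0.38). Mcm5 was the subunit with the highest ratio, at 23.6 and 35.7 CPM, 1.51 (1.45 to 1.58). In Epcam-high cells 4 of these genes stood lower in library 2: Gins2 at 28.5 and 23.5 CPM, Mcm2 at 67.9 and 58.3 CPM, Mcm4 at 73.2 and 62.8 CPM and Mcm6 at 55.5 and 49.6 CPM. In Epcam-low cells the same genes stood higher in library 2, with Gins2 at 25.9 and 36.0 CPM, Mcm2 at 50.7 and 63.5 CPM, Mcm4 at 79.6 and 89.6 CPM and Mcm6 at 38.5 and 49.8 CPM, though none of them past 1.5-fold. Mcm5 stood at 35.0 and 37.0 CPM in Epcam-high and 16.3 and 35.1 CPM in Epcam-low cells, so that the lowest of these values was that of Epcam-low cells in library 1.

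Genes of DNA synthesis itself differed more. Pcna, the sliding clamp of the DNA polymerases, stood at 87.1 and 144 CPM in tumor cells, a ratio of 1.65 (1.61 to 1.68). Rrm1 and Rrm2 encode the subunits of ribonucleotide reductase, and Rrm2 is the subunit whose protein rises in S phase. Rrm1 stood at 26.4 and 47.8 CPM, a ratio of 1.81 (1.74 to 1.88), and Rrm2 at 44.3 and 93.6 CPM, a ratio of 2.11 (2.05 to 2.17). Tyms, thymidylate synthase, stood at 42.5 and 58.1 CPM, a ratio of 1.37 (1.32 to 1.41). Rrm2 was past 1.5-fold in Epcam-low cells (33.4 and 94.6 CPM) and reached 61.3 and 91.6 CPM in Epcam-high cells.

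The histone genes, which are transcribed with DNA synthesis, had the highest log2 ratios of all members in tumor cells. Hist1h1b, a linker histone, stood at 44.1 and 130.3 CPM, a ratio of 2.95 (2.87 to 3.04), and Hist1h2ap, a core histone H2A, at 57.6 and 150.2 CPM, a ratio of 2.61 (2.54 to 2.67). They were the only members called higher in Epcam-high cells, at 59.1 and 106 CPM and 75.1 and 125 CPM. In Epcam-low cells they stood at 34.5 and 143 CPM and 46.4 and 163 CPM. Histone H2A genes are near-identical copies, so the Hist1h2ap value may hold probe counts of its neighbours. Of 34 other histone genes, 5 passed the filter in tumor cells, with 3 called higher and 1 lower (background 2.14% and 0.957%). The log2 ratios of these other histone genes ran from -0.92 to 1.12.

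Among the mitotic genes, the cyclins and their kinase differed from each other. Cdk1, the kinase that drives entry into mitosis, stood at 21.5 and 52.5 CPM in tumor cells, a ratio of 2.44 (2.35 to 2.55). Ccna2, the cyclin of S phase and G2, stood at 19.3 and 40.1 CPM, a ratio of 2.08 (1.99 to 2.17). Ccnb2, a cyclin of mitosis itself, stood at 23.9 and 35.8 CPM, a ratio of 1.499 (1.44 to 1.56), and was not called. The intervals of Cdk1 and Ccna2 lay above that of Ccnb2. In Epcam-high cells Cdk1 stood at 27.8 and 40.5 CPM, while Ccnb2 stood at 33.8 and 29.6 CPM and was lower in library 2. In Epcam-low cells Cdk1 stood at 17.4 and 58.7 CPM and Ccnb2 at 17.5 and 39.0 CPM.

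The mitotic kinases and the checkpoint genes stood higher in library 2 in tumor cells. Plk1, the Polo kinase of spindle and centrosome, stood at 17.2 and 29.3 CPM, a ratio of 1.70 (1.62 to 1.79). Aurkb, the Aurora kinase that corrects attachments of chromosomes, stood at 10.1 and 20.9 CPM, a ratio of 2.07 (1.95 to 2.20), and Aurka, which acts at the spindle poles, at 21.7 and 45.1 CPM, a ratio of 2.07. Birc5, or survivin, the partner of Aurkb in the chromosomal passenger complex, stood at 23.2 and 45.0 CPM, a ratio of 1.94. Bub1 and Bub1b, kinases of the spindle checkpoint, stood at 8.19 and 16.1 CPM and 20.7 and 37.9 CPM, with ratios of 1.96 and 1.83. All 6 were called in tumor cells.

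Genes of the exit from mitosis followed. Cdc20, which activates the anaphase-promoting complex, stood at 21.5 and 35.3 CPM, a ratio of 1.65 (1.57 to 1.72). Ube2c, the ubiquitin-conjugating enzyme of that complex, stood at 57.2 and 119 CPM, a ratio of 2.07. In Epcam-high cells Cdc20 stood at 31.8 and 30.4 CPM and Ube2c at 75.9 and 94.5 CPM. For Cdc20 in those cells the interval of the ratio, 0.892 to 1.02, held 1.

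Motors and spindle proteins covered a range of ratios in tumor cells. Kif11, the motor that pushes the spindle poles apart, stood at 12.9 and 28.8 CPM (log2 ratio 1.10), and Cenpe, a motor of the kinetochore, at 13.1 and 26.2 CPM (0.95). Kif20a and Kif23, motors of the central spindle and of cytokinesis, stood at 17.6 and 30.1 CPM (0.74) and 50.4 and 66.8 CPM (0.40). Kif23 had the lowest log2 ratio of the mitotic genes and stood at 81.0 and 80.5 CPM in Epcam-high cells, a ratio of 0.994 (0.953 to 1.04). Cenpf, a kinetochore protein, stood at 11.7 and 22.2 CPM (0.87), Tpx2, which activates Aurka on the spindle, at 29.4 and 58.4 CPM (0.97), and Nusap1, which bundles spindle microtubules, at 16.3 and 32.3 CPM (0.95). Troap, a microtubule-associated protein, stood at 12.4 and 32.3 CPM (1.31), and Pimreg, a regulator of mitosis, at 18.2 and 45.0 CPM (1.26). Troap and Pimreg thus stood with Cdk1 at the top of the mitotic genes.

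Top2a and Mki67 are widely used to count dividing cells, and they did not give the same ratio. Top2a, the topoisomerase that untangles the copied chromosomes, stood at 46.3 and 97.8 CPM in tumor cells, a ratio of 2.11 (2.05 to 2.17). Mki67, the coat protein of mitotic chromosomes known as Ki-67, stood at 33.8 and 52.6 CPM, a ratio of 1.56 (1.503 to 1.61). In Epcam-high cells Top2a stood at 65.2 and 76.5 CPM and Mki67 at 49.7 and 46.2 CPM, while in Epcam-low cells they stood at 34.1 and 109 CPM and 23.6 and 55.9 CPM. Mki67 was thus the lower in library 2 in Epcam-high cells, a ratio of 0.93 (0.88 to 0.983), where Top2a had 1.17 (1.12 to 1.23). The interval of the Top2a ratio lay above that of Mki67 in each of these groups of cells.

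**Figure D2:**
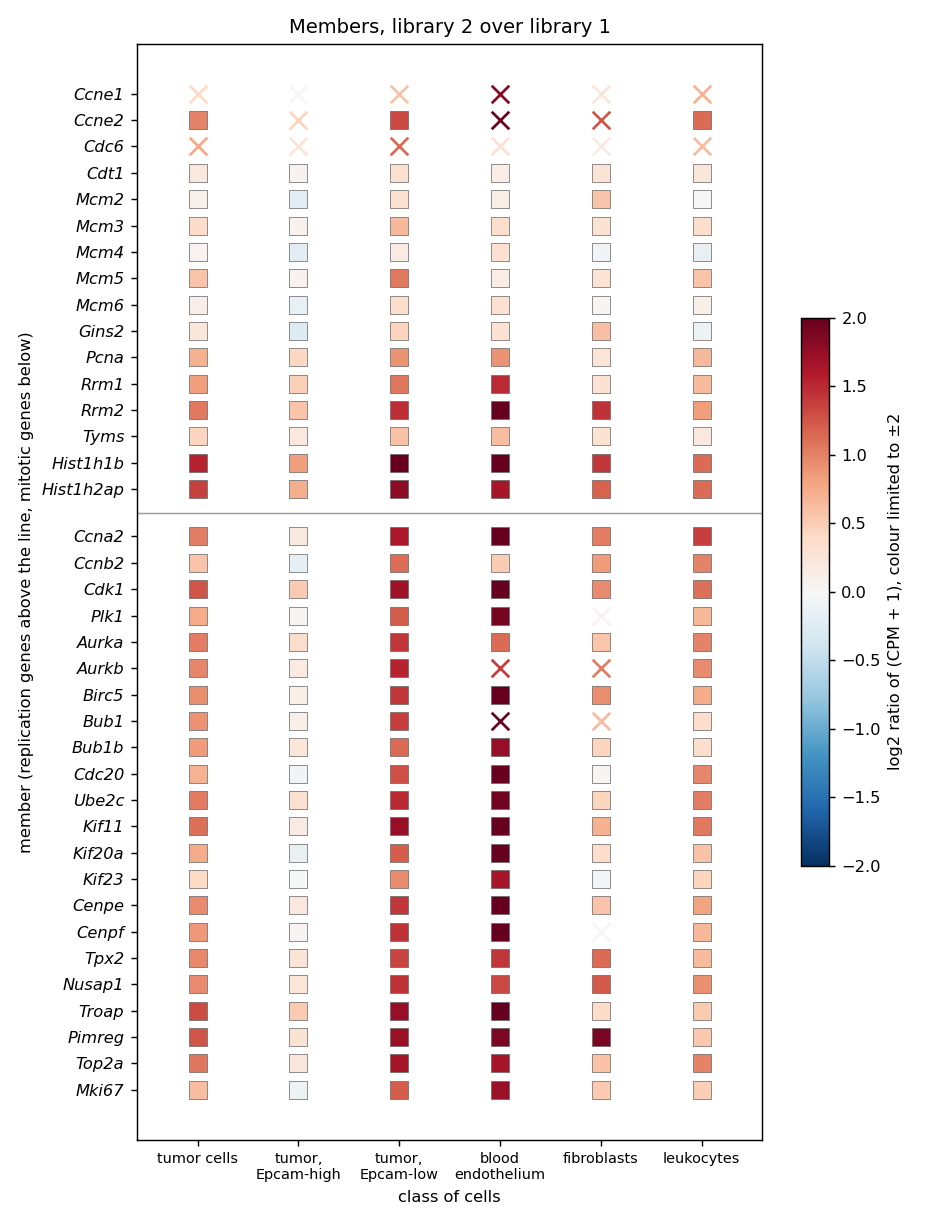
Log2 ratio of CPM plus 1, library 2 over library 1, for each member (rows) in 6 groups of cells (columns); squares passed the filter on low genes and crosses did not. Red stands for higher in library 2 and blue for lower, and the colour stops at 2 in either direction. The column of Epcam-high tumor cells is pale, with log2 ratios from -0.27 to 0.83 among the replication genes, while the Epcam-low column reaches 2.02.

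Wider lists of the same phases gave median log2 ratios near those of the members. In tumor cells 2.14% of all genes were called higher and 0.957% lower. Of 29 further replication genes that passed the filter in tumor cells (36 listed), 8 were called higher and 0 lower, with a median log2 ratio of 0.50. Mcm7, the helicase subunit left out of the member list, stood at 117 and 172 CPM (0.55), Tk1, thymidine kinase, at 60.3 and 95.7 CPM (0.66), and Uhrf1, which maintains DNA methylation at the fork, at 53.8 and 101 CPM (0.90). Of 42 further mitotic genes that passed (53 measured), 35 were called higher and 0 lower, with a median of 0.83. Foxm1, the transcription factor of the mitotic genes, stood at 33.0 and 45.8 CPM (0.46), and Mybl2, its partner in the MuvB complex, at 16.7 and 32.7 CPM (0.93).

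Genes of G1 and of cell cycle exit were counted in the same way. Of the 25 listed, 22 passed in tumor cells, and 0 were called higher and 0 lower, which is near the background of 2.14% and 0.957%, with a median log2 ratio of 0.14. Ccnd1, the cyclin of early G1, stood at 327 and 394 CPM (0.27), Cdk4, its kinase, at 94.2 and 116 CPM (0.30), and Cdkn1a, the inhibitor p21, at 100.1 and 114 CPM (0.19). E2f1, an activator of the replication genes, stood at 34.1 and 40.6 CPM (0.24).

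The 14 tumor clusters differed in cycling far more than the libraries did as a whole. Over clusters, the mitotic sum ran from 143 to 2441 CPM in library 1 and from 142 to 1861 CPM in library 2. The replication and mitotic sums went together across the clusters, with Pearson's r of 0.863 in library 1 and 0.941 in library 2 over 14 clusters of the same library, given as a description. Although 186 cell cycle genes, the members included, were left out of the genes that formed the clusters, cluster 6 was still led by genes of mitosis and histones, after Crisp1, so the clusters are not independent of cycling. Cluster 6 held 320 and 1185 cells, with a mitotic sum of 2441 and 1611 CPM, lower in library 2. Cluster 7, led by the neuroendocrine factor Insm1 and the cytokine Il11, held 243 and 869 cells, with a mitotic sum of 408 and 1304 CPM, and was the tumor cluster with the highest ratio, 3.20. The gland-like cluster 2, led by the gastric genes Gkn2, Tff1 and Muc5ac, held 955 and 1059 cells, with 944 and 973 CPM. Cluster 0, the most numerous, held 2287 and 737 cells, with 170.4 and 188 CPM. Of the Epcam-low clusters, 0 and 3, with little mitotic RNA in both libraries, thus held most of their cells in library 1. Clusters 6 and 11, with much in both, and cluster 7, with much in library 2 only, held most of theirs in library 2. This did not hold for all clusters. Epcam-high cluster 10, at 633 and 644 CPM, held 546 and 226 cells, and Epcam-high cluster 2 was split almost evenly.

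With each cluster held at its share of UMIs in library 1, the tumor mitotic sum of library 2 would be 505 CPM, against 506 in library 1, a ratio of 0.997. For the replication genes it would be 717 CPM against 665, a ratio of 1.08. At the shares of library 2 the ratios were 1.01 and 1.06. Without cluster 6, a setting added after the data were seen, the ratio at the shares of library 1 was 1.10 for the mitotic and 1.11 for the replication genes. At the shares of library 2 it was then 1.31 and 1.14, against 2.03 and 1.60 with each library's own shares. The mitotic sum was higher in library 2 in 12 of 14 clusters, and the replication sum in 11. Within clusters the mitotic ratio ran from 0.473, in cluster 13 with 24 cells in library 2, to 3.20, in cluster 7. Cluster 12 was led by mitochondrial genes, with 4.43% and 3.51% mitochondrial UMIs, and held 73 and 520 cells with a mitotic sum of 1646 and 1861 CPM. Without it, the tumor mitotic ratio was 1.89.

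**Figure D3:**
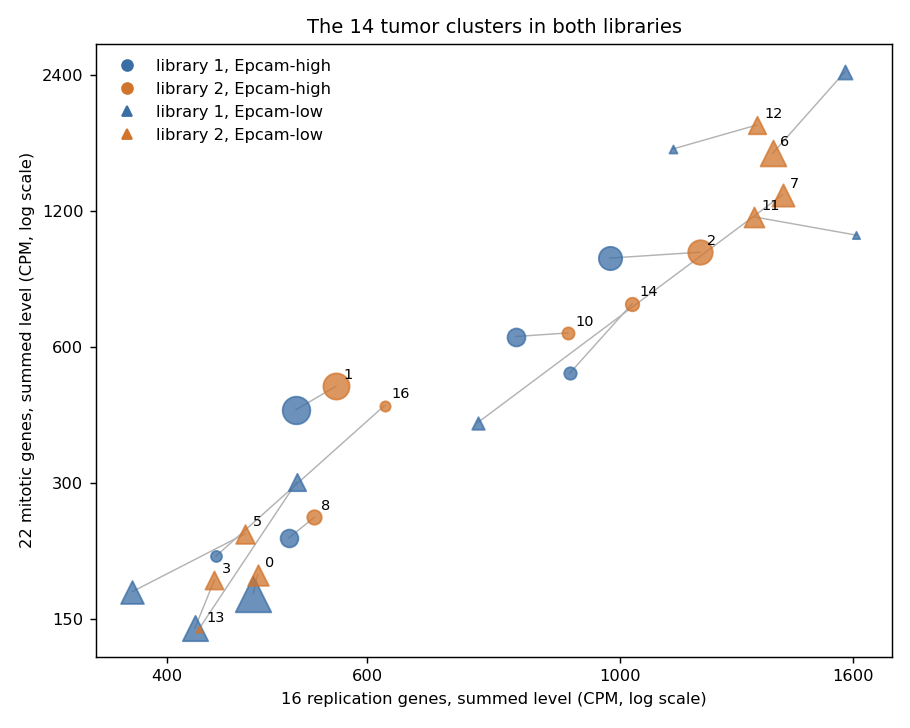
Summed level of the replication genes against that of the mitotic genes (CPM, both axes logarithmic) in each of the 14 tumor clusters, in library 1 (blue) and library 2 (orange), joined by a line and numbered at library 2. Circles are Epcam-high and triangles Epcam-low clusters, and a larger symbol stands for more cells. Clusters 6, 7, 11 and 12 sit above 1000 CPM of mitotic genes in library 2, where cluster 7 moved up from 408 CPM.

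The share of cells with mitotic RNA was compared after drawing 2000 UMIs from each cell, so that every cell had the same depth. Shallower cells were left out, 396 and 506 tumor cells and 84 and 108 neutrophils. In tumor cells 10.9% (975 of 8946 cells, 10.3 to 11.6) of library 1 and 21.2% (1684 of 7952 cells, 20.3 to 22.1) of library 2 held at least 2 mitotic UMIs. Without thinning, the shares were 54.4% and 68.3%. At least 5 mitotic UMIs, a stricter limit added after the data were seen, were held by 4.27% and 9.76%. In Epcam-low cells the share at this limit was 2.71% and 11.6%, and in Epcam-high cells 6.69% and 6.66%. At the limit of 2 it was 7.68% and 22.8% in Epcam-low cells and 15.9% and 18.4% in Epcam-high cells. The libraries were thus far apart in the Epcam-low cells and close in the Epcam-high cells at both limits. At least 2 replication UMIs were held by 25.3% and 35.9% of tumor cells.

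Tumor cells could be sorted by both phases at once. With a limit of 2 UMIs, replication RNA alone was held by 19.5% and 22.3%, mitotic RNA alone by 5.07% and 7.53%, and both by 5.82% and 13.6%. In Epcam-low cells both were held by 3.87% and 15.4%. Of these fractions, the cells holding both lists had the highest ratio between the libraries. Tumor cells with at least 5 mitotic UMIs after thinning had held a median of 18804 and 19168.5 UMIs before it, against 12892 and 13080.5 in the others. Among the cells removed as likely doublets, 5% and 9.23% passed the limit of 5, against 4.34% and 9.55% of the cells kept.

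**Figure D4:**
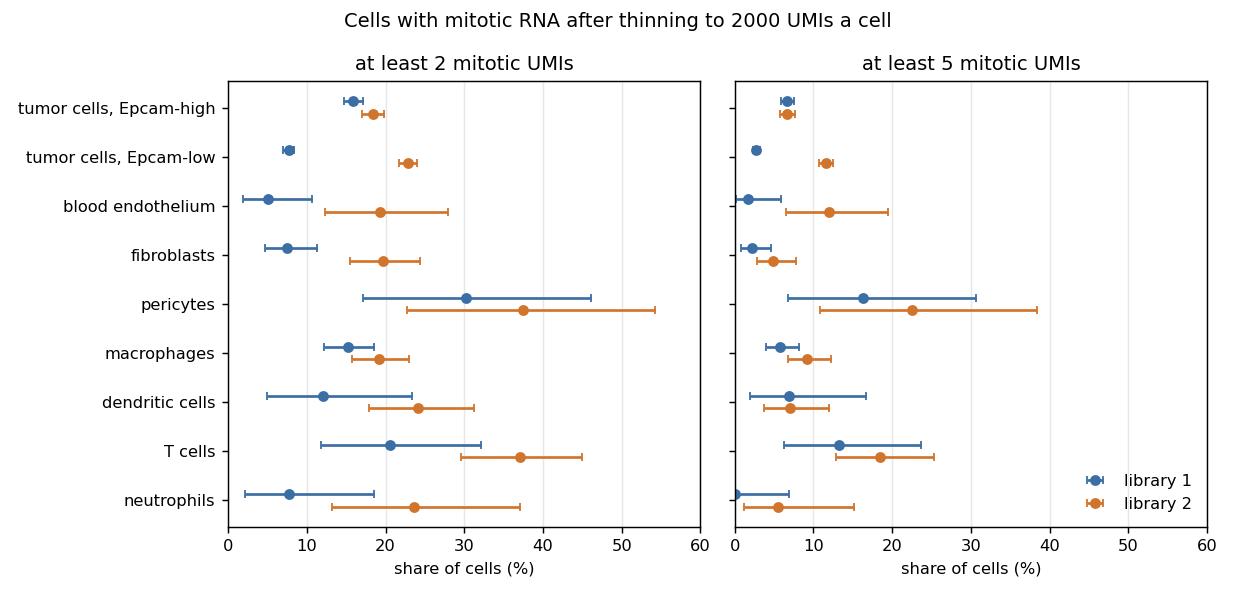
Share of cells, in percent, with at least 2 (left) or at least 5 (right) UMIs of the mitotic genes after thinning to 2000 UMIs a cell, by class, in library 1 (blue) and library 2 (orange), with exact Clopper-Pearson 95% intervals. Neutrophils, which do not divide, sit at 7.69% and 23.6% at the lower limit, close to fibroblasts and blood endothelium. In library 2 both groups of tumor cells are not above neutrophils either, while T cells and pericytes sit higher.

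Blood endothelium, the cells that line vessels, had the highest library ratio of the 4 main classes, on few cells and not under every setting. Its mitotic sum stood at 213 and 847 CPM, a ratio of 3.99 (3.44 to 4.63), and its replication sum at 388 and 745 CPM, a ratio of 1.92 (1.69 to 2.17). These came from 160 and 135 cells and from 243 and 708 mitotic UMIs, and RNA carried over from tumor cells would give 129 and 275 CPM of the mitotic sum. In neutrophils, which do not divide, the ratio of the mitotic sum was 3.12 (2.52 to 3.89), with a range over alternatives from 1.61 without doublet removal to 7.18 with tumor-cell RNA subtracted gene by gene. Other values moved with the library in endothelium too: Col1a1, a collagen of fibroblasts, stood at 295 and 743 CPM, Ptprc, the leukocyte marker CD45, at 11.4 and 23.9 CPM, and the median mitochondrial share at 0.626 and 1.07%. Their part in the result was not tested. Of the mitotic genes that passed, 19 of 20 were called higher, and 6 of 13 of the replication genes (background 10.8%); 0 were called lower (background 5.92%). Ccna2 stood at 2.62 and 31.1 CPM (3 and 26 UMIs), a ratio of 11.9 (3.63 to 61.2), and Cenpe at 2.62 and 26.3 CPM (3 and 22 UMIs), a ratio of 10.0 (3.01 to 52.4). Kif20a stood at 4.37 and 35.9 CPM (5 and 30 UMIs) and Cdk1 at 13.1 and 74.2 CPM (15 and 62 UMIs). Of the licensing genes, Mcm2 stood at 40.2 and 44.3 CPM, Cdt1 at 32.4 and 35.9 CPM and Mcm5 at 19.2 and 21.5 CPM, while Rrm2 stood at 15.7 and 74.2 CPM, Hist1h1b at 20.1 and 87.4 CPM and Pcna at 50.7 and 95.8 CPM. Mki67 stood at 14.9 and 51.5 CPM, Top2a at 21.9 and 70.6 CPM, Plk1 at 7.87 and 32.3 CPM and Cdc20 at 6.12 and 43.1 CPM. Ccnb2, at 13.997 and 20.3 CPM, had a ratio of 1.45 (0.691 to 3.07), an interval that held 1. Aurkb, under the filter, stood at 5.25 and 15.6 CPM on 6 and 13 UMIs. Ccne1 (2.62 and 12.0 CPM) and Cdc6 (1.75 and 2.39 CPM) were under the filter as well, with 3 and 10 UMIs and 2 and 2 UMIs. With no background counted, the 19 called mitotic genes became 11 when each cell was given equal weight and 11 without doublet removal. The ratio of the mitotic sum was then 1.71 and 1.71, below the 1.87 and 1.94 of tumor cells, so that endothelium no longer ranked first.

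Fibroblasts, the cells that lay down collagen, had the lowest mitotic sum of the 4 main classes in library 2. It stood at 314 and 502 CPM, a ratio of 1.60 (1.47 to 1.74), and the replication sum stood at 362 and 547 CPM, a ratio of 1.51 (1.40 to 1.64). RNA carried over from tumor cells would give 121 and 228 CPM of the mitotic sum. Of the mitotic genes that passed, 8 of 18 were called higher, and 4 of 13 of the replication genes (background 5.32%); 0 were called lower (background 4.56%). Pimreg stood at 6.52 and 27.0 CPM (17 and 91 UMIs), Rrm2 at 16.1 and 45.6 CPM, Hist1h1b at 31.8 and 87.7 CPM and Ccna2 at 11.1 and 23.7 CPM. Cdk1 stood at 20.3 and 40.0 CPM and Ccnb2 at 12.7 and 23.7 CPM, both called. At the other end Mcm4 stood at 33.4 and 31.7 CPM, Kif23 at 20.3 and 19.6 CPM and Cdc20 at 18.4 and 19.0 CPM, each with a ratio whose interval held 1. The same was so of Pcna (47.2 and 56.3 CPM) and Mcm5 (14.6 and 17.8 CPM). Mki67 stood at 19.9 and 29.0 CPM, a ratio of 1.46 (1.03 to 2.08), and Top2a at 38.4 and 57.8 CPM, a ratio of 1.51 (1.18 to 1.94), and neither was called. Plk1 (9.21 and 9.78 CPM), Aurkb (4.99 and 11.3 CPM), Ccne1 (6.52 and 8.001 CPM) and Cdc6 (3.84 and 4.45 CPM) were under the filter. In library 1 the 3 cells with the most UMIs held 50% of the Cdc20 UMIs and 42.1% of those of Ube2c. Without the 3 highest cells of each library, 16 mitotic genes were called, and 19 were called without doublet removal. The background was not counted in these settings.

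Leukocytes together had a mitotic sum of 425 and 748 CPM, a ratio of 1.76 (1.68 to 1.84), and a replication sum of 597 and 893 CPM, a ratio of 1.495 (1.44 to 1.56). RNA carried over from tumor cells would give 232 and 429 CPM of the mitotic sum. Of the mitotic genes 15 of 22 were called higher, and 6 of 14 of the replication genes (background 6.4%); 0 were called lower (background 3.4%). Ccna2 stood at 12.2 and 33.6 CPM, Hist1h2ap at 56.8 and 126 CPM, Hist1h1b at 71.8 and 159 CPM and Cdk1 at 17.6 and 38.8 CPM. Mcm4 stood at 53.3 and 48.3 CPM, Gins2 at 21.0 and 19.6 CPM and Mcm2 at 45.5 and 45.6 CPM, each with a ratio whose interval held 1. Cdt1 stood at 49.9 and 59.2 CPM and Mcm6 at 40.6 and 44.0 CPM, with ratios of 1.19 (1.03 to 1.38) and 1.08 (0.918 to 1.28). Top2a stood at 43.5 and 87.6 CPM, Ccnb2 at 14.8 and 30.4 CPM, Aurkb at 10.5 and 21.2 CPM and Cdc20 at 11.7 and 24.0 CPM, all called. Plk1 at 14.99 and 24.4 CPM, Rrm2 at 36.9 and 66.8 CPM and Pcna at 67.6 and 106 CPM were called as well, but Mki67 at 38.5 and 54.3 CPM and Mcm5 at 22.9 and 34.5 CPM were not. Ccne1 and Cdc6, at 6.20 and 10.7 CPM and 5.33 and 8.78 CPM, were under the filter. With tumor-cell RNA subtracted, a setting in which the background was not counted, 3 replication genes were called higher.

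Within the leukocytes the classes differed. T cells, a cluster rich in granzyme genes and Cd8a, had the highest sums of the 4 leukocyte classes. Their mitotic sum stood at 714 and 1094 CPM, a ratio of 1.53 (1.40 to 1.68). Their replication sum stood at 1093 and 1280 CPM, a ratio of 1.17 (1.08 to 1.27). With tumor-cell RNA subtracted gene by gene, the mitotic ratio in T cells was 1.24, and the replication ratio turned to 0.924. Without the 3 highest cells of each library these ratios were 2.06 and 1.56, so the T-cell values moved in either direction with the processing. Macrophages or monocytes stood at 396 and 675 CPM for the mitotic genes, a ratio of 1.70 (1.60 to 1.81), and dendritic cells at 432 and 544 CPM, a ratio of 1.26 (1.09 to 1.46). The direction in dendritic cells turned with the processing: the ratio was 0.763 without doublet removal and 0.54 with tumor-cell RNA subtracted gene by gene, but 2.23 at a Leiden resolution of 0.5 and 2.95 once the 3 highest cells per library were left out. Mki67 stood at 67.8 and 80.9 CPM in T cells and 35.1 and 50.5 CPM in macrophages. T cells numbered 119 of 1125 leukocytes in library 1 and 336 of 1512 in library 2.

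Cells named as pericytes, the mural cells of vessels, held the most mitotic RNA per UMI of all classes, in both libraries. Their mitotic sum stood at 1362 and 1624 CPM on 62 and 51 cells, and their replication sum at 974 and 1056 CPM. The intervals of the mitotic sum, 1232 to 1502 and 1487 to 1770 CPM, lay above those of tumor cells in the same library. Top2a stood at 149.8 and 132 CPM, Mki67 at 123 and 81.98 CPM, Cdk1 at 51.1 and 129 CPM and Ube2c at 126 and 189 CPM. At least 5 mitotic UMIs after thinning were held by 16.3% (7 of 43 cells, 6.81 to 30.7) and 22.5% (9 of 40 cells, 10.8 to 38.5). The library ratio of the mitotic sum was 1.19 (1.04 to 1.36), lower than in any of the 4 main classes. The class is 1 cluster of 113 cells, named for pericytes or smooth muscle, with 10 of 10 markers up. Its leading genes also held Col6a3 and Thy1 of the fibroblast markers, and Col1a1 stood at 14648 and 14119 CPM. Whether fibroblast-like cells hold part of its mitotic RNA was not tested.

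Neutrophils are mature cells that no longer divide, and they serve as a measure of RNA from other cells. Their mitotic sum stood at 227 and 710.2 CPM, and the RNA that tumor cells would carry into them, scaled by tumor markers, came to 278 and 592 CPM. Of the 11 mitotic genes that passed in neutrophils, 9 were called higher and 0 lower, where 1168 and 810 of 8684 genes were. Such calls in endothelium, fibroblasts and leukocytes therefore do not by themselves tell a class's own RNA from RNA carried over. Relative to tumor cells, the tumor markers reached 54.97 and 61.1% in neutrophils, 25.6 and 28.3% in endothelium, 24.0 and 23.5% in fibroblasts, 58.5 and 56.3% in T cells and 32.7 and 27.7% in pericytes. At least 2 mitotic UMIs were held by 7.69% (4 of 52 cells, 2.14 to 18.5) and 23.6% (13 of 55 cells, 13.2 to 37.0) of neutrophils. Fibroblasts, at 7.53% and 19.6%, and endothelium, at 5.04% and 19.3%, were not above these shares, so no expression is read from them at this limit. The neutrophil shares rest on few cells, and their tumor markers were higher than those of both classes. In library 2, 1 thinned neutrophil held at least 15 mitotic UMIs. The neutrophil ratio of the mitotic sum also moved with the clustering. From 3.12 it became 1.64 with cell cycle genes kept among the variable genes and 1.68 at a Leiden resolution of 0.5. Tumor cells, at 10.9% and 21.2%, were not above neutrophils in library 2 either. Epcam-low cells were not above neutrophils in either library, and Epcam-high cells were not in library 2. Expression is not read from these tumor shares alone at this limit. T cells stood at 20.6% and 37.0%, and pericytes at 30.2% and 37.5%. The T-cell shares rest on 68 and 162 cells of 119 and 336, since the others were too shallow to be thinned. The pericyte shares rest on 43 and 40 cells. In library 2 the upper end of the neutrophil interval, 37.0%, was close to both. The classes had median depths of 1175 and 1099 UMIs in neutrophils, 3656.5 and 4145 in endothelium, 4651.5 and 4692 in fibroblasts and 2593 and 1839 in T cells, and only cells of at least 2000 UMIs were thinned.

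At the limit of 5 mitotic UMIs, 0 of 52 neutrophils passed in library 1, which allows a share of up to 5.77%, and 5.45% (3 of 55 cells, 1.14 to 15.1) in library 2. Endothelium held 1.68% (2 of 119 cells, 0.204 to 5.94) and 11.9% (13 of 109 cells, 6.51 to 19.5), and fibroblasts 2.15% (6 of 279 cells, 0.793 to 4.62) and 4.91% (16 of 326 cells, 2.83 to 7.85). In library 1 the endothelial share lay under the limit for neutrophils, and in library 2 the intervals of both classes overlapped. With the tumor share subtracted, the mitotic sum stood at 83.2 and 573 CPM in endothelium, 193 and 274 in fibroblasts, 417 and 548 in T cells, 1197 and 1355 in pericytes and 0 and 118 in neutrophils. How much of each class's cell cycle RNA came from free RNA of other cells, beyond this scaling, was not tested.

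Over single tumor cells the members fell into patterns that did not fully follow the phase lists. Ube2c and Top2a went most closely with the rest of the mitotic genes in both libraries, with Pearson's r of 0.48 and 0.52 for Ube2c and 0.47 and 0.50 for Top2a in 8946 and 7952 thinned cells. For Mki67 it was 0.43 and 0.37. Of the mitotic genes, Kif23 went least closely in library 1 (0.22 and 0.30) and Bub1b in library 2 (0.23 and 0.25). The histone genes went more with the mitotic than with the replication genes: r was 0.32 and 0.46 for Hist1h1b and 0.34 and 0.44 for Hist1h2ap with the mitotic genes, against 0.25 and 0.39 and 0.26 and 0.38 with the replication genes. Rrm2 went about equally with both lists, at 0.30 and 0.32 with the mitotic and 0.26 and 0.33 with the replication genes. With the replication genes, the helicase subunits ran from Mcm6, at 0.07 and 0.11, and Mcm4, at 0.10 and 0.13, to Mcm3, at 0.17 and 0.21, and Mcm5, at 0.19 and 0.23. Rrm1, at 0.11 and 0.16, and Tyms, at 0.09 and 0.15, lay within that range. Counts per cell are sparse and the cells of a library share their library, so these values are a description.

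**Figure D5:**
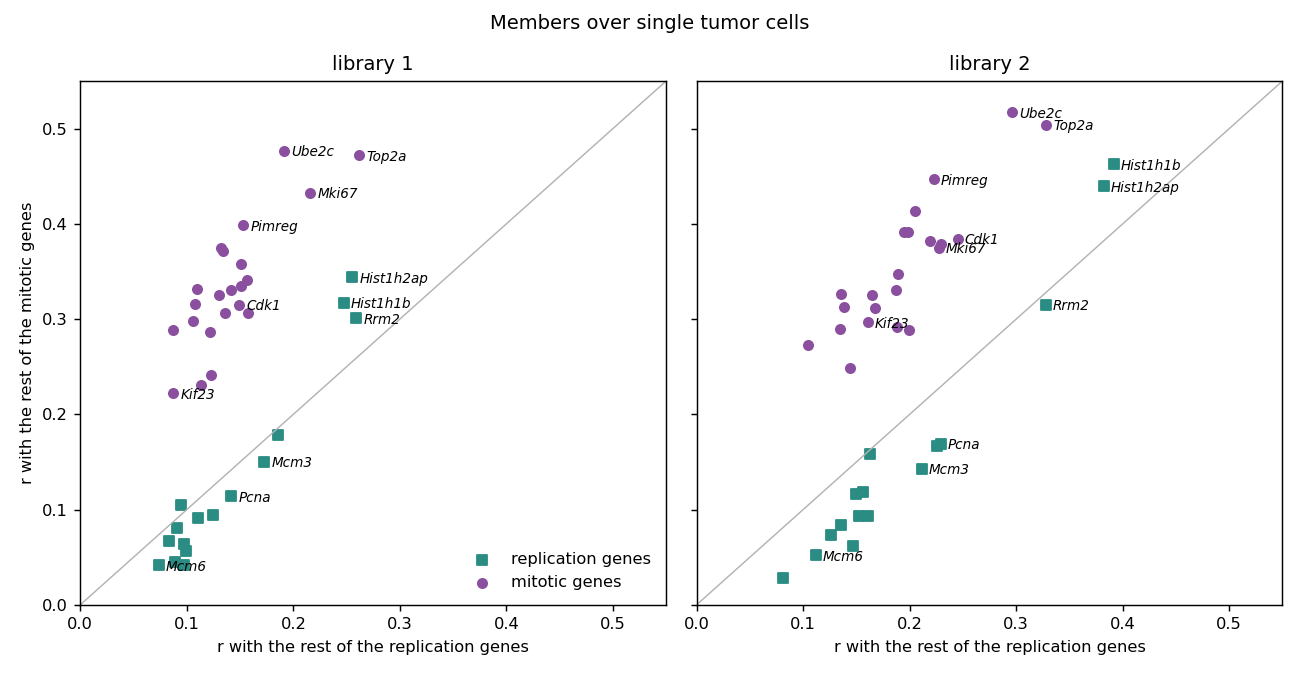
Pearson's r of each member with the rest of the mitotic genes (vertical axis) and with the rest of the replication genes (horizontal axis) over thinned tumor cells of library 1 (left) and library 2 (right). Green squares are replication genes and purple circles are mitotic genes, and the grey line marks equal r. Hist1h1b and Hist1h2ap lie above the line with the mitotic genes, at 0.32 and 0.46 and 0.34 and 0.44 on the vertical axis, while most licensing genes lie at the lower left.

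Pairs of members were found in the same tumor cell more often than the product of their shares in most cases. Top2a and Mki67 occurred together 7.11 times (5.98 to 8.39) in library 1 and 3.88 times (3.37 to 4.46) in library 2 as often as that product. For Aurkb and Birc5, partners in 1 complex, it was 7.69 times (5.33 to 10.8) in library 1 and 5.16 times (3.98 to 6.57) in library 2, and for Ccnb2 and Cdk1 6.33 times (4.76 to 8.26) in library 1 and 3.30 times (2.62 to 4.09) in library 2. Hist1h1b occurred with Top2a 5.74 times (4.73 to 6.89) in library 1 and 4.26 times (3.81 to 4.76) in library 2. The helicase subunits Mcm5 and Mcm6 occurred together 1.81 times (1.32 to 2.43) in library 1 and 1.88 times (1.45 to 2.40) in library 2. Ccne1 with Cdc20, from opposite ends of the cycle, gave 1.35 times (0.279 to 3.95) in library 1 and 1.26 times (0.464 to 2.75) in library 2, on 3 and 6 cells, so no excess was detectable at this depth. Cdc6 with Plk1, likewise far apart in the cycle, gave 3.62 times (1.65 to 6.86) in library 1 and 1.93 times (0.963 to 3.45) in library 2, on 9 and 11 cells. Of the pairs named, the mitotic ones thus had a greater excess than the helicase subunits.

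Genes outside the members were ranked by their r with each sum over tumor cells, as the mean of both libraries, among 9571 genes of at least 10 CPM. With the mitotic sum, the 8 highest were Anln (0.39), which builds the contractile ring, Cdca3 (0.39), the condensin subunit Ncapd2 (0.37), the motors Kifc1 (0.37) and Kif18b (0.35), the nuclease Ankle1 (0.35), Racgap1 (0.35) of cytokinesis, and Hmmr (0.35). With the replication sum they were the histone genes Hist1h1a (0.29), Hist1h2ae (0.25) and Hist1h1e (0.24), with Uhrf1 (0.25), Ncapd2 (0.22), Mybl2 (0.22), Anln (0.22) and Iqgap3 (0.22). Ncapd2 and Anln were thus among the highest for both sums.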

How the data were processed

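UMIs per gene and cell barcode are the authors' deposited counts, made with Cell Ranger 8.0.0 on mm10 per the submitters' processing notes, from a probe-based kit per the labels' protocols; both libraries share 1 matrix. A cell had to hold 200 genes and 500 UMIs, with mitochondrial UMIs below 20%. The highest Scrublet scores were removed at 0.8% per 1000 cells (1217 and 1137 cells), since the automatic threshold marked 3149 and 0. Leiden clusters (resolution 1, 3000 variable genes without 186 cell cycle genes, 50 components, 15 neighbors) were scored by markers at 20 CPM and 2-fold. A class needed at least 3 such markers and at least 1 in 3 of its list. Of the classes that had enough, the one with the highest mean log2 ratio over the median of all clusters was taken. Clusters without a name were scored over the fibroblast and endothelial clusters, a step added after seeing them. There 3 of the 20 epithelial markers were enough, fewer than the first step asked of the tumor class. A cluster of 232 cells with islet genes was left out.

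UMIs were summed per class and library as CPM, with exact Poisson 95% intervals, and ratio intervals came from the binomial share of the counts. With 1 sample per treatment there is no test and no p-value. Levels of different genes are not compared, since probes differ. Tumor-cell RNA was scaled by 14 epithelial markers of at least 100 CPM. The code for the ratio, its interval and the calls was checked on Poisson counts drawn from the class totals with known folds. Such counts hold no spread between cells or samples, so the check does not cover either. Genes named followed a rule: every member, 14 of them in each main class, the 3 highest and 3 lowest log2 ratios per class, and 8 genes per sum. Members, lists and tests were chosen with earlier results of these data known. Ccnb1 and Hmgb2 of the wider list were not analysed here. Python 3.11.15, scanpy 1.11.5, leidenalg 0.10.2 and edgeR 4.0.16 (TMM factors, as an alternative) were used. Other alternatives changed the size factors, the filters, the doublet step, the Leiden resolution, the thinning depth and the limits.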

Additional observations from a re-analysis of the deposited data

How the results depend on the processing

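In tumor cells the results moved little: over 14 alternatives, 18 to 21 mitotic and 5 to 7 replication genes were called higher, and the sums had ratios of 1.85 to 2.03 and 1.47 to 1.61. In Epcam-low cells the ranges were 20 to 22 and 8 to 10 genes. Under the main setting 2.14% of all genes were called higher in tumor cells and 3.31% in Epcam-low cells. That background was not counted under the alternatives. Alternatives on single clusters and the limit of 5 UMIs were chosen after seeing the data. No paired analysis was possible because each library number holds 1 sample. Depth limits endothelium, pericytes, T cells and neutrophils, which hold few cells or few UMIs a cell.

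Counts of called genes moved as follows, and the cause was not tested except where fewer genes passed the filter. The share of all genes called was not counted under these alternatives, so the moves have no background beside them. In endothelium 19 mitotic genes became 11 when every cell weighed the same, 11 with likely doublets kept and 1 in thinned cells, where 1 passed, and 6 replication genes became 3 in thinned cells. In fibroblasts 8 mitotic genes became 14 by per-cell shares, 19 without doublet removal and 16 without the 3 highest cells. In leukocytes 6 replication genes became 3 with tumor-cell RNA subtracted. In Epcam-high cells 0 mitotic genes became 1 in thinned cells and 2 without doublet removal, and 2 replication genes became 1 in thinned cells and 1 by per-cell shares. Among single genes, Aurkb in endothelium turned to -0.084 (log2) by per-cell shares, and Cdc6 in leukocytes to -0.075 in thinned cells.

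The ratio of shares of cells depended on the limit and the depth. For mitotic RNA in tumor cells, 1.94 became 1.43 at 1 UMI, 2.19 at 3, 2.29 at 5, 1.66 at 5000 UMIs a cell and 1.25 without thinning. In endothelium 3.82 became 1.83, 8.19 and 7.10 at 1, 3 and 5 UMIs, 2.46 and 3.37 at 1000 and 5000 UMIs a cell, and 1.56 without thinning. It was 1.12 in leukocytes without thinning, and in fibroblasts it was 1.38 at 1 UMI. For replication RNA in tumor cells, 1.42 became 1.13, 1.77 and 2.48 at 1, 3 and 5 UMIs, 1.62 and 1.12 at 1000 and 5000 UMIs a cell, and 1.04 without thinning. In leukocytes 1.22 became 1.02, 1.54 and 1.94 at 1, 3 and 5 UMIs, 1.61 at 1000 UMIs a cell and 1.01 without thinning. In fibroblasts 1.89 became 1.22, 3.71 and 5.13 at 1, 3 and 5 UMIs, 2.70 and 1.26 at 1000 and 5000 UMIs a cell, and 1.18 without thinning. In endothelium it was 4.91 at 5 UMIs.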

Other observations

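The cluster that carried islet genes (Gcg, Ins2, Iapp), which belongs to no class above, held 56 and 176 cells, with a mitotic sum of 153 and 388 CPM and a replication sum of 446 and 510.3 CPM. Among dendritic cells, cluster 20, led by Clec9a, held 26 and 140 cells with a mitotic sum of 197 and 710.0 CPM, while cluster 21, led by Itgae and Pltp, held 47 and 72 cells with 599 and 319 CPM. Tumor cluster 16, led by interferon response genes such as Ifit3 and Cxcl10, held 175 and 148 cells with a mitotic sum of 206 and 445 CPM, the highest ratio of the Epcam-high clusters (2.16).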
